A study of Mus musculus with 20 samples.

Results

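The 10 genes described here encode the collagen prolyl and lysyl hydroxylases and the chaperones that work with them in the endoplasmic reticulum (ER): *Plod1*, *Plod2*, *Plod3*, *P4ha1*, *P4ha2*, *P4ha3*, *P4hb*, *P3h1*, *Crtap* and *Serpinh1*. They were taken by symbol from the deposited count table, which holds 54532 genes, and all 10 were found and passed the filter on low counts that left 15984 genes for testing. RNA was sequenced from the mouse temporomandibular joint (TMJ), by which the mandible hinges on the skull, as condylar heads with a portion of the bone under the cartilage. Every animal carried *Loxl2* flanked by loxP sites (Loxl2 fl/fl) and a tamoxifen-inducible Cre recombinase driven by the aggrecan promoter (Acan-CreERT2), so that recombination is directed to aggrecan-expressing cells and not to the other cells of the joint. The 8 Control animals (4 males and 4 females) received vehicle and the 12 LOXL2_KO animals (6 males and 6 females) received tamoxifen at 75 mg/kg, daily for 5 days and then 1 injection a month. Mice were 6 months old at the first injection and the joints were collected 4 months later. Tamoxifen and deletion cannot be told apart in this design, and the labels give neither the sex of a library nor a batch.

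Newly made procollagen chains are modified in the ER before they fold into a triple helix. Prolyl 4-hydroxylase, built from an α-subunit (*P4ha1*, *P4ha2* or *P4ha3*) and the β-subunit protein disulfide isomerase (*P4hb*), hydroxylates prolines and so makes the helix stable at body temperature. Lysyl hydroxylases (*Plod1*, *Plod2*, *Plod3*) prepare lysines for glycosylation and for the cross-links that the lysyl oxidases, LOXL2 among them, later form outside the cell. *P3h1* and *Crtap* form a complex that 3-hydroxylates specific prolines, and *Serpinh1* (HSP47) is a chaperone that binds the folded procollagen helix. Mutations in *Plod2*, *P3h1*, *Crtap* or *Serpinh1* cause forms of brittle bone disease.

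Library totals ran from 11153820 to 27045668 counts, and the least covered value of any of the 10 genes was 41 counts (*P4ha3* in Control replicate 8). Levels are given as CPM, counts scaled to a common library size, as mean ± SD with n = 8 Control and n = 12 LOXL2_KO. *Loxl2* itself measured 64.5 ± 30.9 CPM in Control and 101 ± 26.9 CPM in the libraries labelled LOXL2_KO (log2 fold change 0.64, SE 0.28, edgeR adjusted p = 0.101). In Control it ran from 16 CPM (replicate 8) over a median of 70.3 to 103 CPM, and in the libraries labelled LOXL2_KO from 28.8 CPM (replicate 12) over a median of 110 to 126 CPM. The level was thus not lower in the libraries labelled knockout, where 11 of 12 lay above the Control median. Counts are summed over all exons and all cells of the joint, so they do not isolate the deleted stretch of the gene. Recombination was not tested here. The paper reports less LOXL2 protein in the TMJ of the knockout mice by immunohistochemistry, which is a different measure from RNA of the whole joint. Control replicate 8 stood apart from the rest: its 15 chondrocyte markers summed to 123 CPM against 1864 to 4406 CPM in the other Control libraries, with *Acan*, the cartilage proteoglycan, at 2.22 CPM and *Col2a1*, the cartilage collagen, at 1.68 CPM. *Acan* was also low in Control replicate 6 (2.35 CPM). With Control replicates 6 and 8 both omitted, *Loxl2* stood at 0.35 on the log2 scale and did not pass (edgeR adjusted p = 0.314). Values without this pair stand beside some of the other results. The LOXL2_KO libraries lowest in *Acan* were replicates 5, 7 and 4 (5.18, 9.73 and 13.8 CPM), with *Col2a1* at 66.3 CPM in replicate 5. None of them was omitted together with the Control pair, so values without that pair are a one-sided check.

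Of the 10 genes, 8 were higher in the libraries labelled LOXL2_KO and 0 were lower (edgeR quasi-likelihood test, Benjamini-Hochberg adjusted p under 0.05 over all genes tested), where 12.0% of all genes tested were called higher and 23.0% in either direction (1918 and 1755 genes higher and lower). The genes called higher were *Serpinh1*, *P4ha3*, *P3h1*, *Crtap*, *P4hb*, *Plod3*, *Plod1* and *P4ha1*, and those not called were *Plod2* and *P4ha2*. The median log2 fold change was 0.68 over the 10 genes and −0.02 over all genes tested. Among the 6249 genes with a mean of at least 22.6 CPM, the level of the lowest of the 10, 15.5% were called higher. The groups overlapped for each of the 10 genes; 34 of all genes tested (0.213%) had every LOXL2_KO library above every Control library. In bulk tissue, a change in the number of cells of a type and a change in RNA per cell cannot be told apart.

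**Figure D1:**
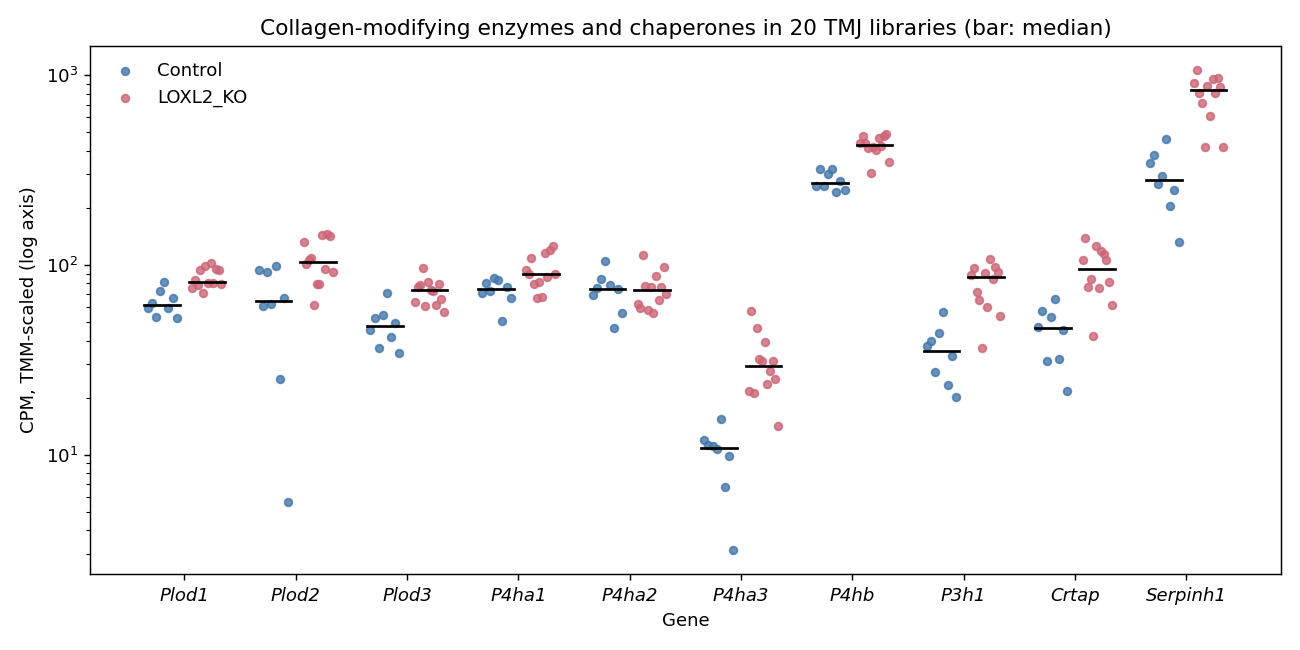
Level of each of the 10 genes (CPM on a log axis) in each of 8 Control and 12 LOXL2_KO libraries, with the median of each group as a bar. Serpinh1, P4ha3, P3h1 and Crtap show the widest step between groups, and P4ha2 shows none past the test. Plod2 is low in Control replicates 6 (25.0 CPM) and 8 (5.67 CPM).

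To set genes beside each other, CPM was divided by the merged length of all annotated exons of a gene. This is not the length of the transcripts present, so the order of genes and their shares depend on it. The length was 4114 bases for *P4ha1* and 6239 for *P4ha2*, which had 73.5 and 73.8 CPM in Control. Per kilobase of exon, *Serpinh1* (119 CPM per kb) and *P4hb* (97.9) stood far above the rest in Control. *Crtap* (25.0) and *P4ha1* (17.9) followed, and then *P4ha2* (11.8), *Plod2* (11.7), *Plod3* (10.7), *Plod1* (9.39), *P3h1* (9.15) and *P4ha3* (3.20). Neighbours in this order were not always separated: *P4ha2* exceeded *Plod2* in 4 of 8 Control libraries, *Plod2* exceeded *Plod3* in 4 of 8, *Plod1* exceeded *P3h1* in 4 of 8, and *Serpinh1* exceeded *P4hb* in 6 of 8. *P4hb* lay above *Crtap* in every Control library, and *P4ha3* was the lowest of the 10 in every Control library. In the libraries labelled LOXL2_KO the means were 321 CPM per kb for *Serpinh1*, 149 for *P4hb*, 53.3 for *Crtap*, 22.8 for *P4ha1*, 20.5 for *P3h1*, 19.9 for *Plod2*, 16 for *Plod3*, 12.8 for *Plod1*, 12.0 for *P4ha2* and 9.87 for *P4ha3*. There *Serpinh1* exceeded *P4hb* in 12 of 12 libraries and *Plod1* exceeded *P3h1* in 1 of 12.

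Of the lysyl hydroxylases, *Plod1* and *Plod3* rose, while *Plod2*, with a larger fold change and a wider spread, did not pass the test. *Plod1* (chr4:147909753-147936767, minus strand, GRCm38/mm10), which hydroxylates helical lysines, ran in Control from 52.3 CPM over a median of 61.2 to 81.1 CPM, and in LOXL2_KO from 71.6 over 81.8 to 103 CPM. All 12 LOXL2_KO libraries lay above the Control median and 6 above the Control maximum. The mean went from 63.5 ± 9.82 to 86.3 ± 10.3 CPM (log2 fold change 0.44, SE 0.09, edgeR adjusted p = 0.00291). *Plod3* (chr5:136987019-136996648, plus strand) encodes an enzyme that also transfers sugars to hydroxylysine. Its values ran from 34.5 over 47.6 to 70.9 CPM in Control and from 56.5 over 73.5 to 96.6 CPM in LOXL2_KO. Its mean rose from 48.3 ± 11.7 to 72.3 ± 11.2 CPM (log2 fold change 0.58, SE 0.12, edgeR adjusted p = 0.00322), with 7 of 12 LOXL2_KO libraries above the Control maximum. *Plod3* shares 529 exonic bases (11.7% of its exonic length) with *Znhit1* on the opposite strand, and whether counting used strand is not given in the sources used here. *Znhit1* itself did not pass (log2 fold change −0.22, edgeR adjusted p = 0.161).

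*Plod2* (chr9:92542223-92608428, plus strand), which hydroxylates the lysines of the telopeptides from which bone-type cross-links are made, varied most among Control libraries. It measured 93.6, 60.6, 91.4, 62.1, 98.4, 25.0, 66.8 and 5.67 CPM in Control replicates 1 to 8. In LOXL2_KO it ran from 61.4 over 104 to 145 CPM, so that 7 of 12 libraries lay above the Control maximum and replicates 6 and 8 of Control lay far below all of them. The mean went from 62.9 ± 33.3 to 107 ± 28.2 CPM. The log2 fold change of 0.77 (SE 0.32, 95% interval 0.09 to 1.45) did not pass the test (edgeR adjusted p = 0.0903). With Control replicates 6 and 8 both omitted, the log2 fold change was 0.43 (edgeR adjusted p = 0.114). *Plod2* shares 346 exonic bases (6.42%) with *Gm38391* on the opposite strand (log2 fold change 0.83, edgeR adjusted p = 0.0610).

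Within libraries, the balance of the lysyl hydroxylases did not shift past the test. The log2 ratio of *Plod2* to *Plod1*, per exonic length, was −0.05 ± 1.30 in Control and 0.60 ± 0.34 in LOXL2_KO, a difference of 0.65 (SE 0.47, exact permutation p = 0.0861, adjusted over 7 ratios 0.100). It was 0.25 without Control replicate 8 (adjusted exact permutation p = 0.308) and 0.04 with Control replicates 6 and 8 both omitted (adjusted exact permutation p = 0.838). That of *Plod3* to *Plod1* was 0.16 ± 0.14 and 0.32 ± 0.18, a difference of 0.16 (SE 0.07, exact permutation p = 0.0578, adjusted 0.0809). As shares of the summed lysyl hydroxylase transcripts per exonic length, *Plod1*, *Plod2* and *Plod3* took 31.3%, 34.0% and 34.8% in Control and 26.4%, 40.4% and 33.2% in LOXL2_KO.

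The α-subunits of prolyl 4-hydroxylase went different ways, and the scarcest of them changed most. *P4ha3* (chr7:100285520-100319699, plus strand) measured 12.0, 11.2, 11.2, 10.7, 15.4, 6.78, 9.84 and 3.14 CPM in Control replicates 1 to 8. In LOXL2_KO replicates 1 to 12 it measured 21.6, 57.6, 21.3, 46.6, 31.9, 31.2, 39.1, 23.5, 27.7, 31.4, 25.1 and 14.3 CPM. Only LOXL2_KO replicate 12 fell within the Control range. The mean rose from 10.02 ± 3.66 to 30.9 ± 12.0 CPM (log2 fold change 1.62, SE 0.26, edgeR adjusted p = 0.00111). *P4ha1* (chr10:59323296-59373304, plus strand), the main α-subunit of most tissues, ran from 50.5 over 74.8 to 85.5 CPM in Control and from 67.0 over 89.5 to 126 CPM in LOXL2_KO. Its mean went from 73.5 ± 11.2 to 93.8 ± 19.6 CPM (log2 fold change 0.35, SE 0.12, edgeR adjusted p = 0.0470), with 8 of 12 LOXL2_KO libraries above the Control maximum and 2 below the Control median. This call was marginal: it held in 7 of 20 fits that left out a library and in 4 of 15 other alternatives, with log2 fold changes of 0.14 to 0.49 in the latter. *P4ha2* (chr11:54100095-54131665, plus strand), the isoform typical of cartilage and bone cells, ran from 46.5 over 74.98 to 105 CPM in Control and from 55.8 over 73.8 to 113 CPM in LOXL2_KO. With 6 LOXL2_KO libraries on each side of the Control median, its log2 fold change was 0.02 (SE 0.15, 95% interval −0.28 to 0.33, edgeR adjusted p = 0.922).

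Ratios within a library, which do not depend on how libraries are scaled, showed the same divergence. The log2 ratio of *P4ha3* to *P4ha1*, per exonic length, was −2.59 ± 0.61 in Control and −1.27 ± 0.71 in LOXL2_KO, a difference of 1.32 (SE 0.30, exact permutation p = 0.000262, adjusted over 7 ratios 0.00183), and 11 of 12 LOXL2_KO libraries exceeded the Control maximum. That of *P4ha2* to *P4ha1* was −0.62 ± 0.19 and −0.92 ± 0.22, a difference of −0.31 (SE 0.09, exact permutation p = 0.00532, adjusted 0.0124), with 8 of 12 LOXL2_KO libraries below the Control minimum. Of the summed α-subunit transcripts per exonic length, *P4ha3* took 9.56% ± 2.74 in Control and 22.3% ± 8.47 in LOXL2_KO. The share of *P4ha2* went from 35.7% ± 2.80 to 26.9% ± 4.01, and that of *P4ha1* from 54.7% ± 3.64 to 50.8% ± 6.21. In Control, *P4ha1* lies above *P4ha2* on this scale only through the exonic lengths, since their mean CPM was 73.5 and 73.8.

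The β-subunit *P4hb* (chr11:120560298-120573253, minus strand), which also works as a protein disulfide isomerase on its own, rose with little overlap between the groups. Its level ran from 243 over 269 to 323 CPM in Control and from 305 over 431 to 489 CPM in LOXL2_KO, with 11 of 12 LOXL2_KO libraries above the Control maximum. The mean went from 280 ± 31.7 to 425 ± 54.5 CPM (log2 fold change 0.60, SE 0.10, edgeR adjusted p = 0.00111). Summed α-subunits stood to *P4hb* in a log2 ratio of −1.59 ± 0.19 in Control and −1.74 ± 0.12 in LOXL2_KO, a difference of −0.15 (SE 0.08) that did not pass the test (exact permutation p = 0.0532, adjusted over 7 ratios 0.0809). It did pass when raw counts were used in place of counts per exonic length, with a difference of −0.25 (adjusted exact permutation p = 0.0115), and with Control replicates 6 and 8 both omitted, with −0.23 (adjusted exact permutation p = 0.00764).

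**Figure D2:**
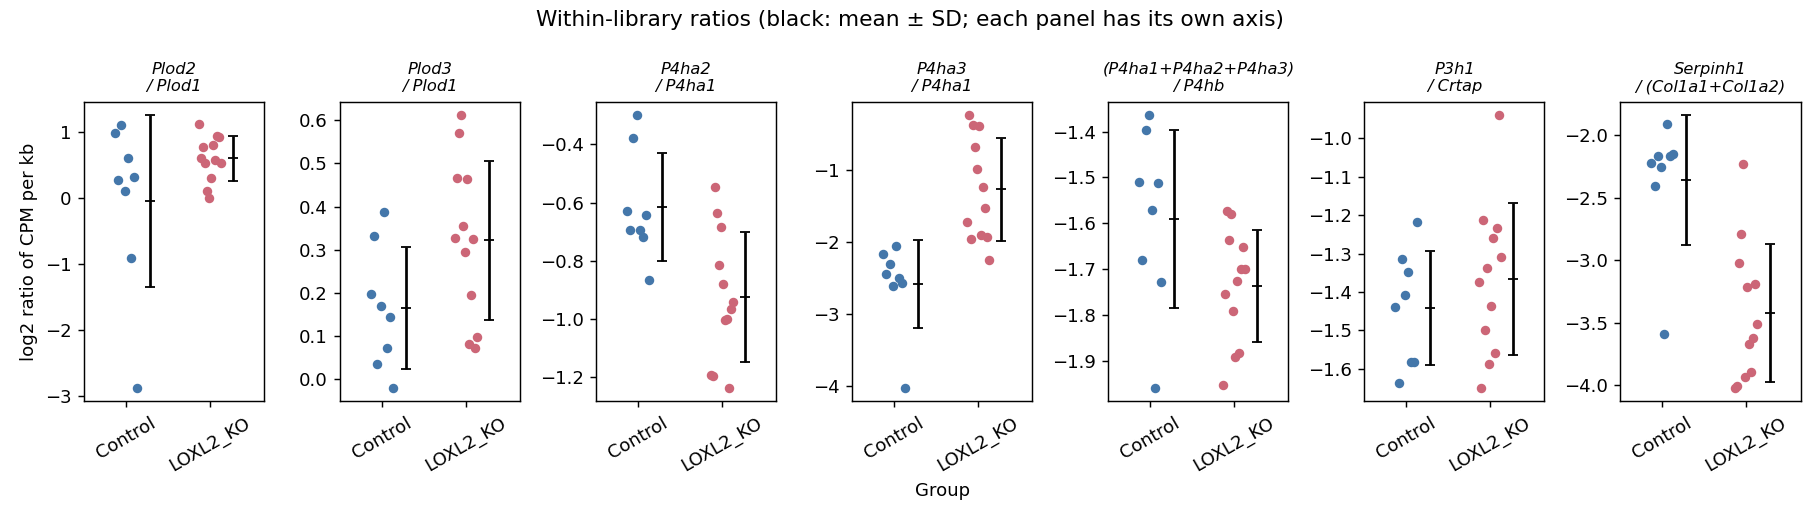
Log2 ratios within each library and per exonic length, for 7 pairs of genes or sums in 8 Control and 12 LOXL2_KO libraries, with mean and SD in black and an own axis for each panel. P4ha3 gained on P4ha1 and P4ha2 lost against it, P3h1 to Crtap stayed within the spread of the libraries, and Serpinh1 fell behind Col1a1 plus Col1a2.

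The promoters of the 3 α-subunit genes are shown because these genes diverged in the same libraries. They are RefSeq sequences (GRCm38.p6) from 250 bases before to 50 after the start, 5′ to 3′ on the strand of the gene: chr10:59323046-59323345 (plus), chr11:54100674-54100973 (plus) and chr7:100285270-100285569 (plus). The first promoter listed for each gene was taken. The *P4ha2* window lies wholly inside the gene, which begins at chr11:54100095, so its start is an internal one. Other starts of these genes were not examined. Capitals mark the letters GGGCGG (a GC box), ACGTG or GCGTG (the core of the hypoxia response element) and CCAAT, on either strand.
P4ha1: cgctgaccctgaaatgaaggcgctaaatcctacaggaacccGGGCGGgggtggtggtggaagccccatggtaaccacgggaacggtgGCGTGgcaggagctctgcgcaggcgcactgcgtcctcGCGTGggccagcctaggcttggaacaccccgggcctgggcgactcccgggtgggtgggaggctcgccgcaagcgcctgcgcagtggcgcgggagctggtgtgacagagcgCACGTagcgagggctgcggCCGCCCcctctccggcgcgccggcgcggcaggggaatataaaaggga
P4ha2: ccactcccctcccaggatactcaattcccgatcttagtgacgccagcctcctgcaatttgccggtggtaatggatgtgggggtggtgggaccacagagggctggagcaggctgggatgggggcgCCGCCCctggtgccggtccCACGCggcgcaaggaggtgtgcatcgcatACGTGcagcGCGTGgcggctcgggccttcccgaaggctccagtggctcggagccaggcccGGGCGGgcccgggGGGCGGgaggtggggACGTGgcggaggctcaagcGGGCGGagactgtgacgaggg
P4ha3: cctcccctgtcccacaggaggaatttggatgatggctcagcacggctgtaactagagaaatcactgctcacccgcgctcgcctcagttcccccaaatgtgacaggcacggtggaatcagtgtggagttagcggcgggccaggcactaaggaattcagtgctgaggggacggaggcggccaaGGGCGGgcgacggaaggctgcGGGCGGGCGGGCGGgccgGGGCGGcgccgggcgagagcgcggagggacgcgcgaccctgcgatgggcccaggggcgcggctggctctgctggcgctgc

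The *P4ha3* window held the GC box alone among these motifs, while those of *P4ha1* and *P4ha2* held the GC box and both hypoxia cores. Of the 10 genes, 9 had a promoter in the RefSeq table (*Plod2* did not). GGGCGG stood in 8 of these 9 windows and in 35.9% of all 27025 promoters of the same length, GCGTG in 7 of 9 and 32.5%, ACGTG in 5 of 9 and 19.7%, and CCAAT in 3 of 9 and 37.9%. CCACG, which forms the ER stress response element when it follows CCAAT after 9 bases, stood in 7 of 9 and 32.7%. The whole ER stress response element stood in 0 of 9 and 0.13% of all promoters, TGACGTG, which contains ACGTG, in 0 of 9 and 1.99%, and the heat shock element in 0 of 9 and 0.529%. The hypoxia cores have all but their first letter in common, and CCACG on the other strand begins with the same letters, so matches can overlap. The 9 windows had a GC content of 53.3% to 70.3%, against a median of 52.7% over all promoters, and matches to GC-rich letters were not compared at equal GC content.

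The partners of the prolyl 3-hydroxylase complex rose together. *P3h1* (chr4:119232915-119248975, plus strand), the catalytic subunit, ran from 20.1 over 35.3 to 56.6 CPM in Control and from 36.5 over 86.5 to 108 CPM in LOXL2_KO. Its mean went from 35.2 ± 11.9 to 78.9 ± 21.2 CPM (log2 fold change 1.16, SE 0.20, edgeR adjusted p = 0.00128). *Crtap* (chr9:114375134-114390675, minus strand), which encodes the cartilage-associated protein that stabilizes the enzyme, ran from 21.6 over 46.3 to 66.3 CPM in Control and from 42.5 over 95.5 to 139 CPM in LOXL2_KO. The mean of *Crtap* went from 44.3 ± 15.0 to 94.5 ± 28.5 CPM (log2 fold change 1.09, SE 0.22, edgeR adjusted p = 0.00229). For both genes 10 of 12 LOXL2_KO libraries lay above the Control maximum, and replicate 5 was the lowest of the LOXL2_KO libraries. Between *P3h1* and *Crtap* the log2 ratio was −1.44 ± 0.15 in Control and −1.37 ± 0.20 in LOXL2_KO, a difference of 0.07 (SE 0.08, exact permutation p = 0.380, adjusted over 7 ratios 0.380).

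*Serpinh1* (chr7:99345376-99353239, minus strand), the procollagen chaperone, had the smallest p-value of the 10 genes. It measured 347, 380, 267, 295, 459, 205, 250 and 132 CPM in Control replicates 1 to 8. In LOXL2_KO replicates 1 to 12 it measured 910, 1067, 809, 714, 418, 881, 613, 956, 810, 966, 863 and 418 CPM. LOXL2_KO replicates 5 and 12 lay within the Control range and the other 10 above it. The mean rose from 292 ± 103 to 785 ± 208 CPM (log2 fold change 1.43, SE 0.22, edgeR adjusted p = 0.00104). Against its main client chains, however, *Serpinh1* lost ground. The log2 ratio of *Serpinh1* to *Col1a1* plus *Col1a2*, which encode the chains of type I collagen, was −2.36 ± 0.52 in Control and −3.43 ± 0.55 in LOXL2_KO, per exonic length. The difference of −1.07 (SE 0.24) passed the test (exact permutation p = 0.000921, adjusted over 7 ratios 0.00322), with 6 of 12 LOXL2_KO libraries below the Control minimum and 0 of 12 above the Control median. On the linear scale the ratio was 0.204 ± 0.0536 in Control and 0.100 ± 0.0443 in LOXL2_KO. Control replicate 5, with a ratio of 0.0830, lay among the LOXL2_KO libraries. The lag was not particular to *Serpinh1*. *Col1a1* and *Col1a2* rose by 2.50 and 2.19 on the log2 scale, more than any of the 10 genes (0.02 to 1.62). *Serpinh1* alone was set against these chains as a ratio. *Col3a1*, the chain of type III collagen, rose by 1.41, close to *Serpinh1*.

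The promoters of *P3h1*, *Crtap* and *Serpinh1* are shown because these genes moved most closely together from library to library (pairwise correlations of 0.91 to 0.94 with group means removed). The windows are chr4:119232665-119232964 (plus strand), chr9:114390663-114390962 (minus strand) and chr7:99353190-99353489 (minus strand), from the same RefSeq table and with the same letters in capitals.
P3h1: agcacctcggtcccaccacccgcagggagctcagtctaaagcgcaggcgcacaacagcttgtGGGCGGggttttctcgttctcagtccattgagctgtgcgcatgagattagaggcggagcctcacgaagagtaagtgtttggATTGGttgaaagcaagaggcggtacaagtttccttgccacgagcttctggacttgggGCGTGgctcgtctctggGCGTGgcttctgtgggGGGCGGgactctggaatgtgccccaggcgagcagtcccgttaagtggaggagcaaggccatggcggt
Crtap: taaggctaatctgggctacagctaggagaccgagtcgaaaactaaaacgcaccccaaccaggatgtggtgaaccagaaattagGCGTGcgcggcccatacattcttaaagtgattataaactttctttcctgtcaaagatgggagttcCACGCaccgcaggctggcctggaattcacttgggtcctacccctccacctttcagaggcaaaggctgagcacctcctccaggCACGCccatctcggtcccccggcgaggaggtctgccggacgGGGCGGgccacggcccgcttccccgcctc
Serpinh1: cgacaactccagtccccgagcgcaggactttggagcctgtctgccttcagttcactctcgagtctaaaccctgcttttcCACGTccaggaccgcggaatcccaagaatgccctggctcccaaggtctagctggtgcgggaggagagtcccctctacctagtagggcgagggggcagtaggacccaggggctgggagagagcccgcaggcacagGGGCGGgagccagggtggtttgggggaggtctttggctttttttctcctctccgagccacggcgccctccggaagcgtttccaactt

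GGGCGG stood in all 3 of these windows, GCGTG in those of *P3h1* and *Crtap*, ACGTG in that of *Serpinh1* and CCAAT, on the opposite strand, in that of *P3h1*. These matches are letters in a window and were not tested as binding sites.

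Within groups, the 10 genes varied together from library to library. After removal of the group means, 44 of 45 pairs correlated positively over the 20 libraries, with a median Pearson r of 0.61. As a description without a test, the closest pairs were *P3h1* with *Crtap* (0.94), *P3h1* with *Serpinh1* (0.93), *Crtap* with *Serpinh1* (0.91) and *P4hb* with *P3h1* (0.90). *P4ha1* went with *P4ha2* (0.78) and not with *P4ha3* (−0.01), and *Plod1* went with *Plod3* (0.79). The libraries share their scaling and tissue makeup, which also enter these values. Pairs of other genes are not given beside them, so the correlations are not shown to be particular to the 10 genes. Nor are values given without the libraries that lay lowest. In Control, replicate 8 was the lowest library for 7 of the 10 genes and replicate 6 for the other 3, while replicate 5 was the highest for 7. In LOXL2_KO, replicate 5 was the lowest for 6 genes and replicate 12 for 3, and these libraries had 1 and 2 genes above the Control maximum, against 6 to 9 in each of the other 10.

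**Figure D3:**
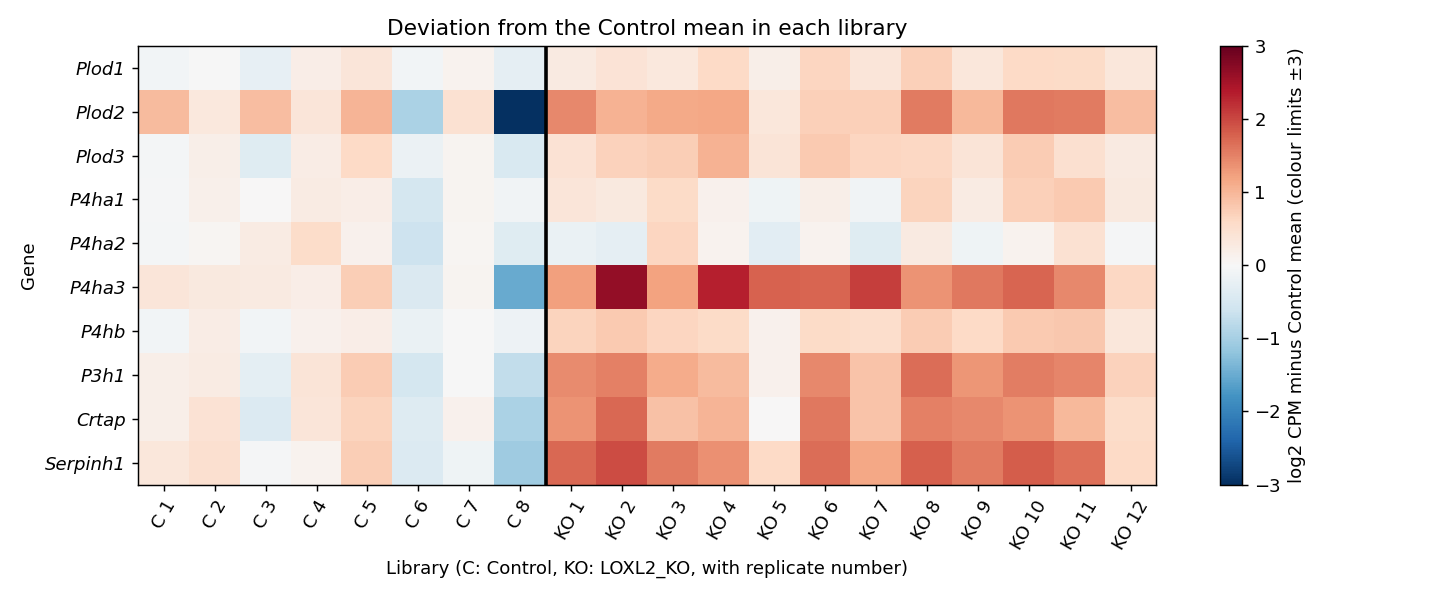
Each cell gives the log2 CPM of 1 gene in 1 library minus the mean over Control, in red where higher and in blue where lower, with colors limited to 3 on either side. Control replicates 6 and 8 lie below the Control median for all 10 genes, LOXL2_KO replicates 5 and 12 are nearest to Control, and the P4ha2 row shows no step between the groups.

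The genes most like each of the 10 over the 20 libraries, by the same correlation with group means removed, are given as a description. For *Serpinh1* they were *Tnc* (0.97), which encodes the matrix protein tenascin-C, *Kdelr2* (0.96), a receptor that retrieves ER proteins, and *Ckap4* (0.96). For *Crtap* they were *Creb3l1* (0.96), a transcription factor of collagen-secreting cells, *Man2b2* (0.95) and *Maged1* (0.95), and for *P4hb* they were *Sec31a* (0.91), a COPII coat protein, *P3h1* (0.90) and *Kdelr2* (0.89). For *P3h1* they were *Rasa3* (0.95), *Sparc* (0.95), which encodes osteonectin, and *Sdc3* (0.95). *P4ha3* was most like *S1pr2* (0.87), *Htra1* (0.86) and *Txndc5* (0.85), and *Plod2* was most like *Dkk3* (0.94), *Zfp618* (0.94) and *Adamts18* (0.94). *Plod1* was most like *Slc2a1* (0.88), the glucose transporter, *Plod3* (0.79) and *Pgam1* (0.78), and *Plod3* was most like *Tm9sf1* (0.86), *Armc5* (0.86) and *Litaf* (0.86). *P4ha1* was nearest to *Syt8*, *Shroom1* and *Fam180a* (0.84 each), and *P4ha2* to *Tnn* (0.87), *Fmod* (0.83), which encodes fibromodulin, and *Cspg4* (0.83).

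Whether the enzymes and chaperones kept step with their substrate was examined with *Col1a1* within each group, over 20 relations in all. In the 12 LOXL2_KO libraries *Crtap* followed *Col1a1* most closely (Pearson r = 0.97, permutation p = 1e-05, adjusted 0.000200, where 1e-05 is the smallest p that 100000 resamples can give). Spearman's rho was 0.92 (permutation p = 8.0e-05, adjusted 0.000800), and with the 2 libraries most distant in *Col1a1* left out r was 0.93. For *P3h1* the values were r = 0.92 (permutation p = 5.0e-05, adjusted 0.000333), then rho = 0.78 (permutation p = 0.00422, adjusted 0.0130), and 0.79 for r without those libraries. *Serpinh1* likewise had 0.88 for r (permutation p = 3.0e-05, adjusted 0.000300), 0.88 for rho (permutation p = 0.000390, adjusted 0.00260) and 0.82 for r without them. For *P4hb*, r = 0.80 (permutation p = 0.00247, adjusted 0.00988) with rho = 0.69 (permutation p = 0.0167, adjusted 0.0417) dropped to 0.39 without them, so that this relation rests on those libraries. With TMM scaling the α-subunit and lysyl hydroxylase genes did not pass in LOXL2_KO: *P4ha2* had r = 0.07 (permutation p = 0.831), *P4ha3* had r = 0.14 (permutation p = 0.664) and *Plod3* had r = 0.22 (permutation p = 0.488). The values were r = 0.54 for *Plod2* (permutation p = 0.0702), 0.44 for *P4ha1* (permutation p = 0.149) and 0.43 for *Plod1* (permutation p = 0.165). With library totals alone as the scale, these last 3 genes passed (r = 0.65, 0.62 and 0.63, adjusted permutation p = 0.0346, 0.0430 and 0.0399). Differences between these correlations were not tested. The osteoblast and osteocyte marker score (mean log2 CPM) also varied within groups, from 2.13 to 5.61 in Control and 3.18 to 6.52 in LOXL2_KO. Control replicate 8 and LOXL2_KO replicate 5 were the lowest of their groups both in this score and in *Col1a1*. The part of tissue makeup in the relations to *Col1a1* was not tested in either group.

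In the 8 Control libraries *Serpinh1* ranked in the same order as *Col1a1* (rho = 1, exact permutation p = 4.96e-05, adjusted 0.000800; r = 0.90, exact permutation p = 0.00365, adjusted 0.0113; r = 0.99 without the 2 farthest libraries). *P3h1* had r = 0.91 (exact permutation p = 0.000744, adjusted 0.00372) with rho = 0.90 (exact permutation p = 0.00456, adjusted 0.0130), and r = 0.83 without them. *Crtap* had r = 0.85 (exact permutation p = 0.00734, adjusted 0.0163) with rho = 0.90 (exact permutation p = 0.00456, adjusted 0.0130), and r = 0.81 without them. *P4ha3* had rho = 0.95 (exact permutation p = 0.00114, adjusted 0.00570), while its r of 0.78 did not pass after adjustment (exact permutation p = 0.0488, adjusted 0.0887). *Plod1*, *Plod3* and *P4hb* passed by r (0.77, 0.88 and 0.81, adjusted exact permutation p = 0.0416, 0.0113 and 0.0132) and not by rho (adjusted exact permutation p = 0.107, 0.0559 and 0.0559). For *Plod1*, r dropped to 0.21 without the 2 farthest libraries. With Control replicates 6 and 8 omitted, *Serpinh1* alone passed over the other 6 (r = 0.93, adjusted exact permutation p = 0.00694). *P4ha3* had the highest r there (0.94) and did not pass (adjusted exact permutation p = 0.0675). *P3h1*, *Plod3* and *Crtap* had r = 0.86, 0.81 and 0.76 (adjusted exact permutation p = 0.0675, 0.156 and 0.215). Against *Col3a1*, the chain of type III collagen, *Serpinh1*, *P3h1* and *Crtap* still passed in Control (r = 0.96, 0.92 and 0.86) and did not in LOXL2_KO (r = 0.31, 0.22 and 0.09, adjusted permutation p = 0.395, 0.559 and 0.792).

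**Figure D4:**
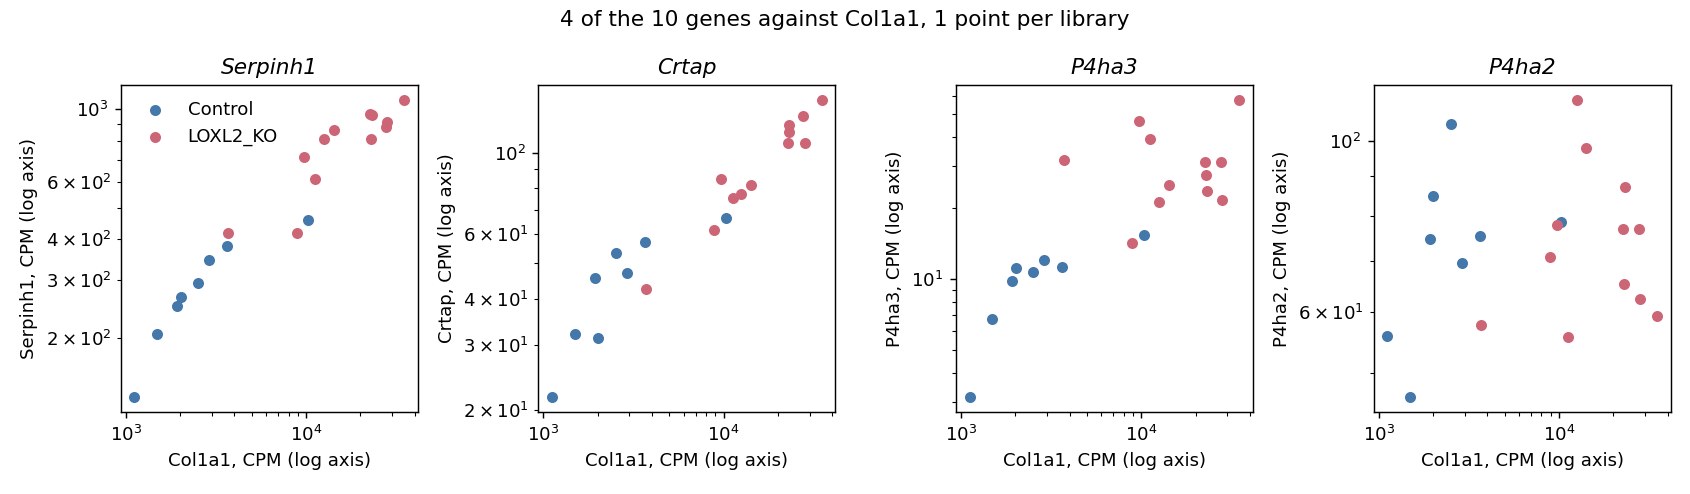
Serpinh1, Crtap, P4ha3 and P4ha2 against Col1a1, all in CPM on log axes, with 1 point per library. Serpinh1 and Crtap climb with Col1a1 in both groups, P4ha3 spreads without order among the LOXL2_KO libraries, and P4ha2 shows no relation to Col1a1 in LOXL2_KO.

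The surrounding collagen pathway was described by counts over lists of its genes. Of 11 fibrillar collagen genes, the clients of these enzymes, 8 were higher and 0 lower, with a median log2 fold change of 1.59. *Col1a1* went from 3240 ± 2965 to 18303 ± 9541 CPM (log2 fold change 2.50, SE 0.45, edgeR adjusted p = 0.00144), and *Col5a1* (1.59) and *Col5a2* (1.60), chains of type V collagen, were called too, while *Col27a1* was not (0.37, edgeR adjusted p = 0.552). In a list of 12 genes around procollagen folding, not all of them folding factors, 9 were higher and 1 lower, with a median of 0.84. *Fkbp10*, a prolyl isomerase that works with the lysyl hydroxylases, rose by 1.62 (SE 0.29, edgeR adjusted p = 0.00136), *Creb3l1* by 1.86 (SE 0.33, edgeR adjusted p = 0.00141) and *Ppib*, the cyclophilin B of the *P3h1* complex, by 0.77 (SE 0.15, edgeR adjusted p = 0.00233). The gene that fell was *Tmem38b*, an ER cation channel (log2 fold change −0.53, edgeR adjusted p = 0.0103), and *Colgalt2*, a galactosyltransferase, had 0.29 (edgeR adjusted p = 0.443).

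The list for export from the ER, which also holds the retrieval receptors *Kdelr2* and *Kdelr3*, was mixed. Of its 10 genes, 4 were higher and 3 lower, with a median of −0.03. *Kdelr2* (1.09), *Kdelr3* (1.48) and the COPII coat gene *Sec24d* (1.19) rose (edgeR adjusted p = 0.00104, 0.00140 and 0.00196), while *Mia3*, the receptor that loads procollagen into carriers, stood at 0.01 (edgeR adjusted p = 0.925). *Sar1b*, *Trappc2* and *Mia2* were the genes that fell (log2 fold changes −0.86, −0.33 and −0.25, edgeR adjusted p = 0.00546, 0.0224 and 0.0273). Of 8 genes for processing outside the cell, 7 were tested (*Tll2* was not), 4 were higher and 0 lower, with a median of 0.70. *Adamts2* (1.43), the N-proteinase, *Pcolce* (1.36), the enhancer of the C-proteinase, and *Bmp1* (1.24), the C-proteinase, were called (edgeR adjusted p = 0.00206, 0.00128 and 0.00164), and *Tll1* was not (0.10, edgeR adjusted p = 0.920). Of the 5 lysyl oxidases, 3 were higher and 0 lower, with a median of 1.09: *Lox* (1.96), *Loxl4* (1.39) and *Loxl1* (1.09) were called (edgeR adjusted p = 0.00144, 0.0296 and 0.00135), and *Loxl3* (0.55) and *Loxl2* (0.64) were not (edgeR adjusted p = 0.153 and 0.101).

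Genes that share a chemistry or a compartment with the hydroxylases, outside the collagen pathway, formed 3 further lists. Of 20 genes for general ER folding and its stress response, 6 were higher and 0 lower, with a median of 0.24. The protein disulfide isomerases *Pdia5* (1.24) and *Pdia3* (0.57) and the stress transcription factor gene *Xbp1* (0.41) were called (edgeR adjusted p = 0.00104, 0.00609 and 0.00203), and *Ddit3*, the stress gene for CHOP, was not (0.08, edgeR adjusted p = 0.732). *Pdia5* was the only one of the pathway genes named here with no overlap, at 2.91 to 6.95 CPM in Control and 6.98 to 17.99 CPM in LOXL2_KO. Of 10 other 2-oxoglutarate dioxygenases, enzymes that use the same cofactors, 0 were higher and 3 lower, with a median of −0.24: *Phyh* (−0.56), *Hif1an* (−0.50) and *Ogfod1* (−0.46) fell (edgeR adjusted p = 0.0189, 0.0218 and 0.00235), and *Jmjd6* did not (−0.00, edgeR adjusted p = 0.986). Of 16 targets of the hypoxia-inducible factor HIF, a known regulator of *P4ha1*, *P4ha2* and *Plod2*, 0 were higher and 4 lower, with a median of −0.29. *Egln3* (−0.69), *Vegfa* (−0.48) and *Hk2* (−0.45) fell (edgeR adjusted p = 0.0302, 0.0185 and 0.0213), and *Adm* did not (0.04, edgeR adjusted p = 0.903). Beside these medians, that of all genes with a mean of at least 22.6 CPM was −0.06. Over all genes with a mean of at least 75.9 CPM it was −0.16. The lists were not tested against each other, and HIF activity was not measured. Skeletal muscle markers were also lower in LOXL2_KO for 5 of 12 genes, and a part of tissue makeup in these lists was not tested.

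**Figure D5:**
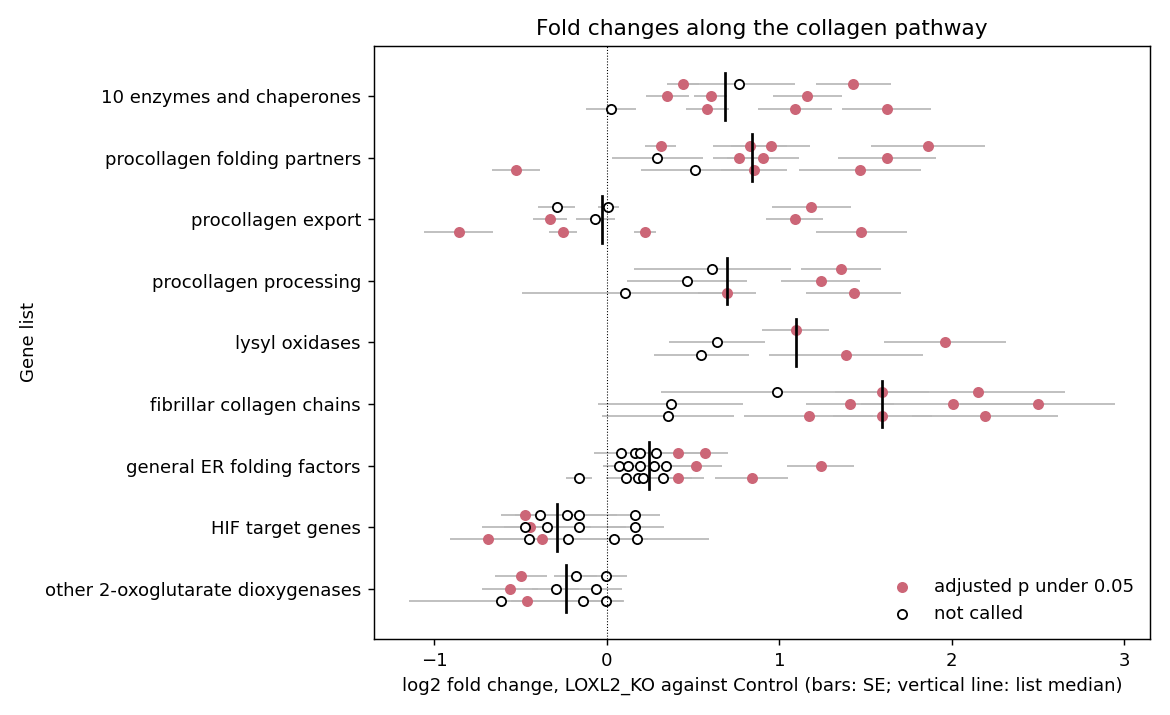
Log2 fold change of LOXL2_KO against Control for each tested gene of 9 lists, with SE as bars, filled points for genes with an edgeR adjusted p under 0.05 and the list median as a vertical line. Fibrillar collagen chains have the highest median (1.59), and the lists of HIF targets and other 2-oxoglutarate dioxygenases have medians below 0 (−0.29 and −0.24).

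Other cell types moved with the groups. Osteoclast markers were higher in LOXL2_KO for 10 of 10 genes, summing to 157 to 1092 CPM in Control and 540 to 5820 CPM in LOXL2_KO (score difference 2.34 on the log2 scale, exact permutation p = 0.000183, adjusted over 11 lists 0.00148). Macrophage markers were higher for 7 of 8 genes (50.9 to 246 against 147 to 584 CPM; difference 1.26, adjusted exact permutation p = 0.00148). Mast cell markers were higher for 5 of 6 tested (2.22 to 20.6 against 5.82 to 190 CPM; difference 2.03, adjusted exact permutation p = 0.00696). Osteoblast and osteocyte markers were higher for 6 of 12 (198 to 2058 against 325 to 4425 CPM; difference 1.27, adjusted exact permutation p = 0.0409), and fibroblast and tendon markers for 4 of 10 (568 to 2340 against 1652 to 3165 CPM; difference 0.50, adjusted exact permutation p = 0.0103). With Control replicates 6 and 8 both omitted, these differences were 0.70 and 0.25 and neither passed (adjusted exact permutation p = 0.207 and 0.125), and the osteoblast and osteocyte list did not pass without replicate 6 (1.09, adjusted exact permutation p = 0.0678) or replicate 8 (0.96, 0.0938) alone. Skeletal muscle markers were high throughout, at 52908 to 193017 CPM in Control and 37296 to 97330 CPM in LOXL2_KO, with 5 of 12 genes lower (difference −0.73, adjusted exact permutation p = 0.0545). Chondrocyte markers did not pass (difference 0.39, adjusted exact permutation p = 0.526), and their direction rests on the same libraries: the difference was −0.08 without Control replicate 8 (adjusted exact permutation p = 0.870) and −0.44 with replicates 6 and 8 both omitted (adjusted exact permutation p = 0.354). Nor did the test pass for the neutrophil (1.90, 0.0665; 2.28, 0.0412 without Control replicate 6), erythroid (−0.96, 0.0864), endothelial (−0.10, 0.526) and adipocyte (−0.49, 0.482) lists. No marker of these lists was at 0 in every library. The mitochondrial genome took 17.8% ± 2.78 of counts in Control and 13.6% ± 3.03 in LOXL2_KO (exact permutation p = 0.00530).

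With the osteoclast score as a covariate in the edgeR fit, 0 of the 10 genes were called and all 10 log2 fold changes stayed above 0. By edgeR, 5 of the 10 had an unadjusted p under 0.05. The smallest were those of *P4ha3* at 1.17 (unadjusted p = 0.00216), *P4hb* at 0.38 (unadjusted p = 0.00757) and *Serpinh1* at 0.69 (unadjusted p = 0.00847). *Crtap*, at 1.09 without the covariate, stood at 0.23 (edgeR unadjusted p = 0.317), and *Plod2*, *Plod3*, *P4ha1* and *P4ha2* were not under 0.05 either. This score shares 58.3% of its variance with the group, and the same fit called 0 of all genes tested. With the mitochondrial share as a covariate, 0 of the 10 were called by edgeR and 7 had an unadjusted p under 0.05, with *Serpinh1* at 1.06 and *P4ha3* at 1.13. That fit, too, called 0 of all genes tested by edgeR, with 2466 at an unadjusted p under 0.05, against 1373 with the osteoclast score and 5910 without a covariate. With the osteoblast and osteocyte score or the skeletal muscle score, 7 of the 10 were called, all but *P4ha1* of the original 8, with *Serpinh1* at 1.06 under the muscle score. With the fibroblast and tendon score, 5 were called (*Plod1*, *Plod3* and *P4ha1* were lost). With Control replicates 6 and 8 omitted, 7 were called and *P4ha1* was not (0.25, edgeR adjusted p = 0.209). The log2 fold changes of the 7 were all smaller than with every library. They were 1.39 (*P4ha3*), 1.23 (*Serpinh1*), 0.98 (*P3h1*), 0.90 (*Crtap*), 0.54 (*P4hb*), 0.48 (*Plod3*) and 0.37 (*Plod1*).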

How the data were processed

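RNA from TMJ condylar heads of 8 Control and 12 LOXL2_KO mice was sequenced (paired-end, Illumina). The authors trimmed the reads, mapped them to mm10 and deposited raw counts per Ensembl gene from featureCounts. The aligner, annotation, strand setting and treatment of multiply mapped reads were not given in the sources used here. Groups and replicate numbers came from the sample titles. Nothing states that libraries with the same number share an animal or litter.

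Here, 54495 of 54532 gene identifiers were matched to GENCODE M21 (GRCm38/mm10), and 20340 genes had no count. The annotation gave symbols, coordinates (1-based) and exonic lengths, merged over all annotated exons of a gene. edgeR 4.0.16 in R 4.3.3 was used with filterByExpr, TMM scaling and the two-sided quasi-likelihood F-test, with Benjamini-Hochberg adjustment over 15984 genes and a threshold of 0.05. SE were derived from the F statistic, and log2 CPM used a prior count of 2. Totals of 11153820 to 27045668 counts put the floor of 3 counts at 0.0964 to 0.246 CPM, for counting error only. In simulated counts for the 15984 genes of this comparison, 155 of 200 genes changed by a log2 fold of 1.5 were recovered (77.5%) and 7 unchanged genes were called. Of the 10 genes only *P4ha3* changed by as much, and far more than 200 genes were called in the data. These rates therefore do not carry over to the 10 genes. Ratios per exonic length, marker scores (mean log2 CPM) and library measures were compared by exact two-sided permutation over 125970 assignments, and correlations by all 40320 pairings (Control) or 100000 resamples (LOXL2_KO). Promoters came from RefSeq (GRCm38.p6), with the first listed taken for each gene.

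Named were the 10 genes, *Loxl2*, in each pathway list the 3 tested genes with the smallest p and the 1 with the largest, and for each of the 10 the 3 genes most correlated with it. *Tmem38b*, *Sar1b*, *Trappc2*, *Mia2*, *Col1a2*, *Col3a1*, *Acan*, *Col2a1*, *Znhit1*, *Gm38391* and *Tll2* stand outside this rule, the first 4 chosen after their values were seen. The members, lists, ratios and motifs were chosen with earlier results of these data known. Alternatives were other scalings (DESeq2 1.42.0 size factors, upper quartile, library totals), the Wald test of DESeq2 used by the study, other filters, robust dispersion, a replicate block, covariates and omission of each library. The fibroblast and tendon covariate, the omission of Control replicates 6 and 8 (both together, and singly for marker lists), and the fit of 16 libraries were added after the data were seen.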

Additional observations from a re-analysis of the deposited data

Results flagged for a closer look

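In 18 tests for a library far from its group (the gap to the nearest library divided by the range, in the 8 Control libraries, with 0.526 as the critical value), 3 were past the limit; chance gives about 1 in 20. *P4ha1* was low in Control replicate 6 (50.5 CPM, gap share 0.544). The log2 ratio of *P4ha3* to *P4ha1* was low in Control replicate 8 (−4.03 against −2.61 to −2.05 in the other 7, gap share 0.718), the library with the lowest chondrocyte markers. The log2 ratio of *Serpinh1* to *Col1a1* plus *Col1a2* was low in Control replicate 5 (−3.59 against −2.41 to −1.91, gap share 0.702), which also had the highest *Col1a1* of the Control libraries (10308 CPM). The 3 differences between groups that involve these values kept their direction without each of these libraries.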

How the results depend on the processing

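Of the 10 genes, *P4ha3*, *P4hb*, *P3h1*, *Crtap* and *Serpinh1* were called in all 20 fits that left out a library and in 13 of 15 other alternatives, and *Plod1* and *Plod3* in all 20 and in 12 of 15. The alternatives that ended these calls were the osteoclast and mitochondrial covariates and, for *Plod1* and *Plod3*, also the fibroblast and tendon covariate. With the osteoclast list as covariate, 0 of the 10 genes and 0 of all genes were called by edgeR (1373 of all genes at an unadjusted p under 0.05, against 5910 without a covariate), with log2 fold changes of 0.31 (*Plod1*), 0.35 (*Plod3*), 0.25 (*P4ha1*), 1.17 (*P4ha3*), 0.38 (*P4hb*), 0.53 (*P3h1*), 0.23 (*Crtap*) and 0.69 (*Serpinh1*). With the mitochondrial share, 0 of the 10 and 0 of all genes were called by edgeR (2466 at an unadjusted p under 0.05), with 0.33 (*Plod1*), 0.37 (*Plod3*), 0.31 (*P4ha1*), −0.064 (*P4ha2*), 1.13 (*P4ha3*), 0.48 (*P4hb*), 0.84 (*P3h1*), 0.63 (*Crtap*) and 1.06 (*Serpinh1*). The added fibroblast and tendon covariate left 5 of the 10, losing *Plod1* (0.36), *Plod3* (0.40) and *P4ha1* (0.28), with *P4ha2* at −0.12 and 374 genes higher and 94 lower in all. The cause was not tested.

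*P4ha1* was not called with DESeq2 size factors (0.34), upper-quartile factors (0.34), no filter (0.36), the skeletal muscle covariate (0.28), the osteoblast and osteocyte covariate (0.14) or Control replicates 6 and 8 omitted (0.25), and ran from 0.30 to 0.40 over single omissions. *P4ha2*, never called, changed sign with the osteoblast and osteocyte covariate (−0.14) and with Control replicates 6 and 8 omitted (−0.12), and ran from −0.043 to 0.13 over single omissions. It was below 0 without Control replicate 6 (−0.04), Control replicate 8 (−0.01), LOXL2_KO replicate 3 (−0.043) or LOXL2_KO replicate 11 (−0.01). *Loxl2* passed only without LOXL2_KO replicate 12 (edgeR adjusted p = 0.0313).

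Replicate numbers did not pair the samples: same-numbered libraries correlated at −0.29 to 0.23 in their deviations from the group means, and 2 of 8 Control replicates correlated best with their own number. With the replicate number as a block over 16 libraries, 7 of the 10 were called, *P4ha1* was at 0.25 and *P4ha2* at −0.0045, and 1100 genes were higher and 686 lower in all. The same 16 libraries without the block also gave 7, with *P4ha1* at 0.26 and *P4ha2* at −0.00060.

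Counts over all genes (1918 higher, 1755 lower) were 588 and 414 with the skeletal muscle covariate, 597 and 224 with the osteoblast and osteocyte covariate, and 1016 and 687 with Control replicates 6 and 8 omitted. With library totals alone, 2188 were higher and 849 lower, since the median of all genes moved to 0.12, the endothelial list changed sign (0.053), and 8 of the 10 genes were still called. Over single omissions the lower count ran from 988 (without Control replicate 8) to 2038. DESeq2 called 2191 higher and 2031 lower. The ratio of the α-subunits to *P4hb* passed with raw counts (−0.25) and medians (−0.17) and ran from −0.20 to −0.11 over omissions, passing without Control replicate 6. It was −0.23 and passed with Control replicates 6 and 8 omitted. *Plod2* to *Plod1* ran from 0.25 (without Control replicate 8) to 0.82, passing without Control replicate 3, and *Plod3* to *Plod1* from 0.13 to 0.19, passing without Control replicate 5. With Control replicates 6 and 8 omitted, *P4ha2* correlated with *Col1a1* at −0.16 in Control, and the chondrocyte list differed by −0.44 (−0.079 without replicate 8, 0.15 without replicate 6). In all, 137 of 140 single omissions for ratios and 26 of 40 values of the *Col1a1* relations under *Col3a1* or library totals kept their side of the threshold.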
